A study of Homo sapiens with 22 samples.

Results

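A set of 9 genes that carry the sensing of foreign nucleic acid and the transmission of interferon signals were followed through RNA-seq of renal proximal tubule epithelial cells (RPTEC) in which SETD2 had been lost and restored. They were RIGI, IFIH1, TLR3, CGAS, STING1, IRF1, IRF7, IRF9 and STAT2, chosen by name, and all 9 were found among the 36859 genes of the deposited table. RPTEC are epithelial cells of the kidney tubule immortalized with hTERT, and SETD2 is the methyltransferase that trimethylates lysine 36 of histone H3. There were 22 libraries in 11 groups of 2. Grown in 2% serum were WT cells without and with TGF-β (10 ng·mL−1, given over 72 h), KO1 and KO2, which are clones with SETD2 knocked out, and libraries labelled KO2 rescue. Grown in 10% serum were Rescue1 and Rescue2, which are clones of KO2 carrying lentiviral full-length SETD2 and selected with blasticidin. Also in 10% serum were WT cells that had received lentiviral eGFP, SOX2, OCT2 or PRRX1 and were selected in bulk with puromycin. Each knockout and each rescue line was 1 clone, made with 1 guide against exon 3 of SETD2. Serum and lentivirus therefore differed together between the rescue clones and KO2, and the labels do not say whether the 2 libraries of a group came from separate cultures, so p-values measure the spread between these libraries, which may be technical.

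Nucleic acid sensors start the interferon response. RIG-I (RIGI) and MDA5 (IFIH1) recognise viral RNA in the cytosol and signal through MAVS, TLR3 recognises RNA duplexes in endosomes, and cGAS (CGAS) recognises cytosolic DNA and signals through STING (STING1). The transcription factors IRF1 and IRF7 act below the sensors, and secreted interferon then acts back on the cell through JAK kinases, with STAT2 and IRF9 as subunits of the complex ISGF3. ISGF3 binds the interferon-stimulated response element (ISRE) of its target genes, and the gamma-activated site (GAS) is an element of genes that respond to interferon-γ. Tubule epithelium is able to mount this response, and several of the genes followed here are themselves known interferon targets.

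The regions just before the start sites are shown for the members whose levels the results turn on, and for IFIH1, which held the most ISRE letters. RefSeq start regions (GRCh38.p14, 250 bases before to 50 after the start) were held for 6 of the 9 genes, RIGI, IFIH1, TLR3, IRF1, IRF9 and STAT2. CGAS, STING1 and IRF7 were not held. The motifs searched were GAAA, any 2 bases and GAAA again on both strands for ISRE, and TTC, any 3 bases and GAA, which reads the same on both strands, for GAS. Of 35116 such regions over all genes, 3.57% held the first and 7.66% the second. Printed bases run 5′ to 3′ on the strand of the gene, and capitals mark the matches.
STAT2 (chr12:56360174-56360357, minus strand): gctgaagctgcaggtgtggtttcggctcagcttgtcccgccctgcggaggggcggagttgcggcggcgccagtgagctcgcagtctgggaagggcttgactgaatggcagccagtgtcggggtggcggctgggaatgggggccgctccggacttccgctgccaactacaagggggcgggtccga
IRF1 (chr5:132490774-132491023, minus strand): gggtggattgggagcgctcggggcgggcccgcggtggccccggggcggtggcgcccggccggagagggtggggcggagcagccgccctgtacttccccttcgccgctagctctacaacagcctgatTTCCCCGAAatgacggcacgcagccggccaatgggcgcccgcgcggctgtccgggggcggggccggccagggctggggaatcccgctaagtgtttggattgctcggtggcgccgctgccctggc
IFIH1 (chr2:162318685-162318869, minus strand): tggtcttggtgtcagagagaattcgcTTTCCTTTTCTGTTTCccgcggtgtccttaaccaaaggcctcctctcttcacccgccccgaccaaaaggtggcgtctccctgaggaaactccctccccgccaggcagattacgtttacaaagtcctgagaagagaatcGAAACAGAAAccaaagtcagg
IRF9 (chr14:24161191-24161220, plus strand): gaccacgtgatTTCTGGGAAaaggccctcc
TLR3 (chr4:186069142-186069171, plus strand): caagctttacTTTCACTTTCgagagtgccg
IFIH1 held 3 ISRE matches, at −159 to −150, −153 to −144 and −21 to −12 from its start, of which the first and second overlap. TLR3 held 1 ISRE match, from −4 to 6 across its start, and 2 GAS matches outside the stretch shown. IRF1 held 1 GAS match, at −124 to −116, and IRF9 held 1, at −63 to −55. STAT2 and RIGI held neither set of letters in the 300 bases. The stretch of STAT2 covers −250 to −67 from the start, that of IRF1 −250 to −1 and that of IFIH1 −185 to −1. For IRF9 and TLR3 only 30 bases around a match are shown, and these lie within annotated exons. A match is a description of the letters and not a measured binding site.

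The deposited values were log2 values with a shared floor, which were converted back to normalized counts (counts scaled for sequencing depth). These added up to between 11674491 and 16758645 per library, and behind them lay roughly 7700000 to 19000000 reads. SETD2 had 1956 ± 148 normalized counts in WT (mean ± SD, n = 2 here and below), 1088 ± 59.4 in KO1, 1051 ± 1.35 in KO2, 10305 ± 90.9 in Rescue1 and 10105 ± 481 in Rescue2. The libraries labelled KO2 rescue had 827 ± 10.5, so SETD2 mRNA goes against that label and they are called here by it only. An exact 0 could be a failed estimate, since 246 of the 10460 genes that reached 100 in any library (2.352%) were listed at 0 in 1 library and at 100 or more in its duplicate. KO1 had the most such genes, 88 of 8646 (1.018%), against 0.248% to 0.525% in the other groups. KO1 replicate 2 had 14082 genes above 0, the fewest of any library, so values of 0 in KO1 are the least certain. A gene was tested where at least 2 libraries had at least 10 normalized counts, which 8 of the 9 members passed and CGAS did not. It was called where limma's adjusted p was under 0.05 and the log2 change of normalized count + 1 exceeded 1 in size. Of the tubule markers PAX8 was at 1535 or more in every library, whereas LRP2, a defining receptor of the proximal tubule, was listed at 0 in 20 of 22. Of 8 blood cell markers CD3E, MS4A1 and HBB were listed at 0 throughout, and the 8 together summed to at most 379.9, of which CD68 reached up to 364. The 5 endothelial markers summed to 2.66 to 157, and PECAM1 was listed at 0 in 19 of 22 libraries.

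**Figure D1:**
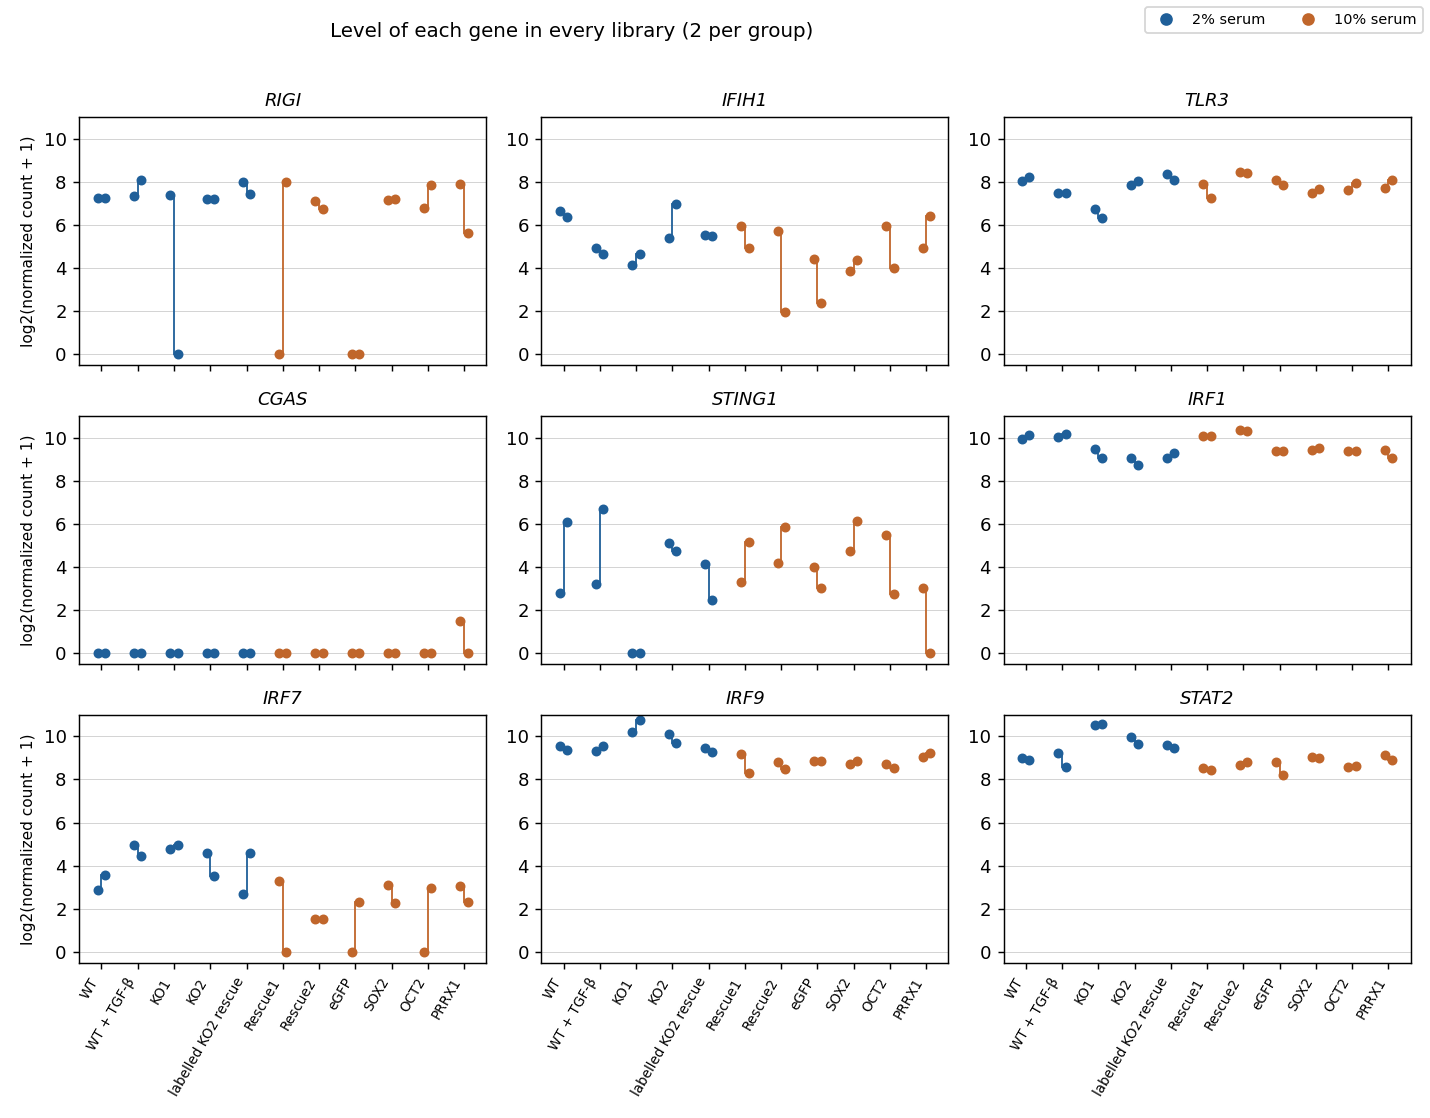
Level of each of the 9 genes in every library, as log2(normalized count + 1), with 2 points per group joined by a line and colour for the serum in the medium. STAT2 and IRF9 sit highest in KO1 and KO2, IRF1 sits lowest in KO2 at 420 and 534 normalized counts, TLR3 sits lowest in KO1 at 78.4 and 105, and CGAS is listed at 0 in 21 of 22 libraries.

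STAT2, the subunit of ISGF3 that carries its activation domain, was highest in the knockout clones. STAT2 (ENSG00000170581, GRCh38 chr12:56341597-56360203, minus strand) had 511 and 485 normalized counts in WT, 1468 and 1542 in KO1, and 1017 and 791 in KO2. Neither knockout clone overlapped WT, and KO1 and KO2 did not overlap each other. With TGF-β it had 606 and 385, on both sides of the WT libraries. The 3.02-fold rise in KO1 (log2 change 1.59, SE 0.20, limma adjusted p = 1.4e-05) passed the threshold. In KO2 the log2 change of 0.85 (SE 0.20, adjusted p = 0.0047) had the adjusted p but not the fold. In the rescue clones STAT2 had 364 and 343 in Rescue1 and 412 and 443 in Rescue2, all under the WT libraries. The libraries labelled KO2 rescue lay between, at 769 and 701. In the transduced WT cells STAT2 had 445 and 298 with eGFP, 524 and 515 with SOX2, 384 and 388 with OCT2, and 556 and 483 with PRRX1. In order of the group means KO1, KO2 and labelled KO2 rescue stood highest, in that order, each without overlap with the next, and the remaining 8 groups lay between 354 and 519.6.

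IRF9, the DNA-binding subunit of ISGF3, was also highest in KO1 and then KO2, with wider spread between duplicates. Below these the order differed from that of STAT2, with the mean of the libraries labelled KO2 rescue under that of WT. IRF9 (ENSG00000213928, GRCh38 chr14:24161234-24168043, plus strand) had 757 and 670 normalized counts in WT and 640 and 752 after TGF-β. It had 1178 and 1738 in KO1 and 1122 and 832 in KO2. Both libraries of each knockout clone were above both WT libraries. In KO1 it rose 2.01-fold (log2 change 1.01, SE 0.25, adjusted p = 0.0043), a call that rests on the fold threshold and that was lost without WT replicate 2 (0.92) or without KO1 replicate 2 (0.73, adjusted p = 0.0639). When all libraries were brought to 1 total, the change was 0.60 (adjusted p = 0.0576). In KO2 the change was 0.44 (SE 0.25, adjusted p = 0.21). It had 573 and 315 in Rescue1, 455 and 360 in Rescue2, 714 and 627 in the libraries labelled KO2 rescue, and 368 to 601 in the transduced WT cells. All 12 libraries in 10% serum were thus below both WT libraries in 2% serum. A second annotated coding gene, ENSG00000259529, overlaps IRF9 on the same strand and was not analysed here, so that reads shared between them are uncertain.

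Per kilobase of canonical transcript, the scale on which genes can be compared, the level in WT was 439 ± 37.9 normalized counts for IRF9 and 113 ± 4.22 for STAT2. In KO1 the levels were 897 ± 244 and 342 ± 11.9, so STAT2 was the lower of the pair in both groups. With TGF-β neither STAT2 (log2 change −0.05, adjusted p = 0.942) nor IRF9 (−0.04, adjusted p = 0.969) passed limma's test against WT.

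**Figure D2:**
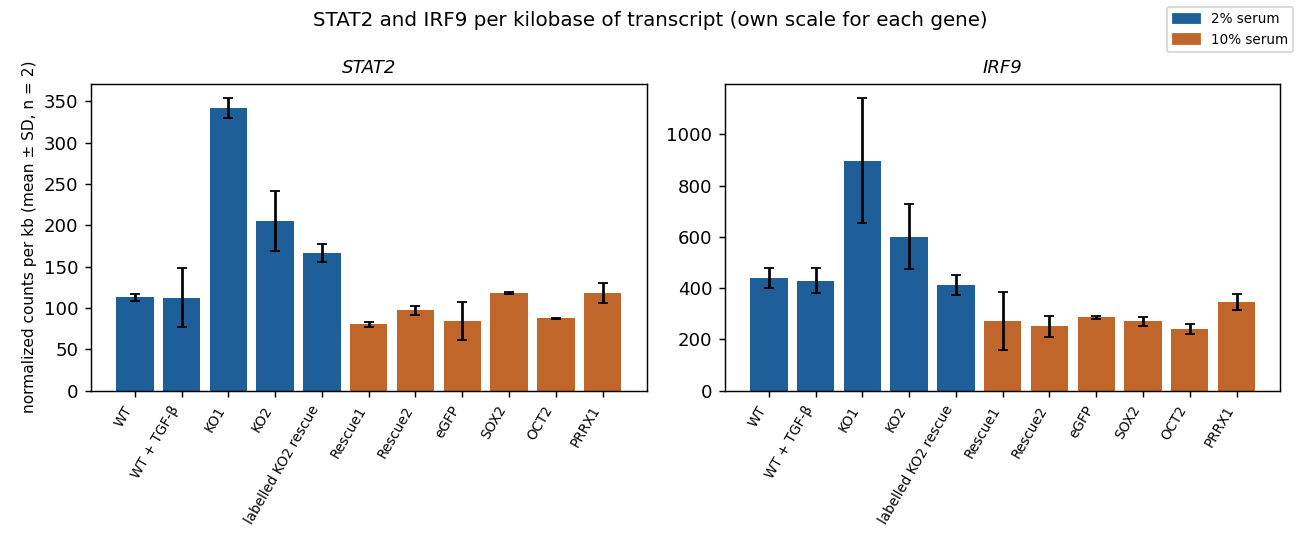
Normalized counts per kilobase of canonical transcript for STAT2 and IRF9 in the 11 groups, as bars from 0 with the mean and SD of 2 libraries, colour for serum, and a separate scale for each gene. Both genes are highest in KO1 (342 and 897 per kilobase) and then KO2 (205 and 601 per kilobase).

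IRF1, a transcription factor that activates antiviral and interferon-γ target genes, was lower in the knockout clones. IRF1 (ENSG00000125347, GRCh38 chr5:132440440-132508719, minus strand) had 986 and 1106 normalized counts in WT, and after TGF-β 1040 and 1143. It had 714 and 530 in KO1 and 534 and 420 in KO2, so that all 4 knockout libraries were below the 4 libraries of WT and TGF-β. In KO2 IRF1 fell 2.20-fold (log2 change −1.14, SE 0.15, adjusted p = 4.5e-05), or −0.97 without KO2 replicate 2, where it no longer passed the fold threshold. In KO1 the log2 change of −0.76 (SE 0.15, adjusted p = 0.00104) did not reach that threshold, and with the same total for every library it was −1.17. IRF1 had 1068 and 1081 in Rescue1 and 1284 and 1250 in Rescue2, and 530 and 617 in the libraries labelled KO2 rescue. In the transduced WT cells its 8 values ran from 527 to 739, below both WT libraries in 2% serum. A gene on the opposite strand, IRF1-AS1, overlaps IRF1, and DDX43 overlaps CGAS. The libraries were made with a stranded kit, but whether the counting used strand is not given in the sources used here, so reads of such pairs may not be told apart.

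IRF7, which drives the later wave of interferon-α genes, was measured at low counts. IRF7 (ENSG00000185507, GRCh38 chr11:612553-615983, minus strand) had 6.33 and 10.9 normalized counts in WT and 30.1 and 20.9 after TGF-β. KO1 had 26.0 and 30.3, and KO2 had 23.4 and 10.6. It had 8.69 and 0 in Rescue1, 1.87 and 1.85 in Rescue2, 5.45 and 22.8 in the libraries labelled KO2 rescue, and 0 to 7.65 in the transduced WT cells. KO1 and TGF-β did not overlap WT, but no change of IRF7 passed the test, with a log2 change from WT of 1.64 in KO1 (SE 1.15, adjusted p = 0.285) and 1.48 with TGF-β (SE 1.15, adjusted p = 0.466).

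TLR3 was the sensor measured most evenly, and it was low in KO1 alone among the knockout clones. TLR3 (ENSG00000164342, GRCh38 chr4:186068911-186088073, plus strand) had 259.7 and 297 normalized counts in WT, 105 and 78.4 in KO1, and 228 and 261 in KO2. KO1 was below every other library of the series, and KO2 overlapped WT. The 3.04-fold fall in KO1 (log2 change −1.61, SE 0.22, adjusted p = 4.0e-05) passed the threshold, and the change in KO2 (−0.19, SE 0.22, adjusted p = 0.598) did not. The difference between the clones themselves was −1.42 (SE 0.22, adjusted p = 5.4e-04), and in a fit of those 2 groups alone it had an adjusted p of 0.117. That fit called 1 gene among all genes, so it says nothing particular about TLR3. With TGF-β TLR3 had 180 and 177, a log2 change of −0.64 (SE 0.22, adjusted p = 0.068) with no overlap with WT. It had 235 and 153 in Rescue1, 354 and 341 in Rescue2, 325 and 268 in the libraries labelled KO2 rescue, and 179.7 to 271 in the transduced WT cells.

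RIGI and IFIH1, the cytosolic RNA sensors, differed widely between duplicates in some groups. On the log2 scale their duplicates differed by a median of 0.56 and 1.04, and by up to 8.01 and 3.75. RIGI (ENSG00000107201, GRCh38 chr9:32455302-32526208, minus strand) was listed at 0 in 4 of 22 libraries, which were both eGFP libraries, KO1 replicate 2 and Rescue1 replicate 1. KO1 replicate 1 had 165 normalized counts and Rescue1 replicate 2 had 256. In the other 18 libraries it had 49.0 to 274, with 153 and 150 in WT and 144 and 146 in KO2. A second annotated coding gene, ENSG00000288684, overlaps RIGI on the same strand and was not analysed here, so that its reads too are uncertain. IFIH1 (ENSG00000115267, GRCh38 chr2:162267074-162318684, minus strand) had 99.9 and 81.4 in WT, 29.4 and 24.4 after TGF-β, then 16.4 and 24.1 in KO1 and 40.5 and 126 in KO2. TGF-β and KO1 were below WT without overlap, yet neither log2 change passed the test, at −1.71 (SE 1.05, adjusted p = 0.33) and −2.13 (SE 1.05, adjusted p = 0.126). IFIH1 had 61.7 and 29.4 in Rescue1, 51.7 and 2.93 in Rescue2, 45.2 and 44.5 in the libraries labelled KO2 rescue, and 4.15 to 83.7 in the transduced WT cells. The duplicates of Rescue2 differed by 3.75 on the log2 scale.

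Of the DNA sensing pair, CGAS (ENSG00000164430, GRCh38 chr6:73413515-73452297, minus strand) was listed at 0 in 21 of 22 libraries and at 1.82 in PRRX1 replicate 1. STING1 (ENSG00000184584, GRCh38 chr5:139475533-139482935, minus strand), the adaptor of cGAS, was listed at 0 in both KO1 libraries and in PRRX1 replicate 2. WT had 5.97 and 65.8, TGF-β-treated cells 8.21 and 101, and KO2 33.5 and 25.3. Across the other groups it ran from 0 to 69.2. The duplicates of WT thus differed by 3.26 on the log2 scale, and those of TGF-β by 3.47. STING1 was called lower in KO1 than in WT (adjusted p = 0.0205), a call lost without WT replicate 2 (adjusted p = 0.208) or without KO1 replicate 1 (0.062) or replicate 2 (0.0723), and no fold is given against libraries listed at 0.

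Against WT, the question was how loss of SETD2 and treatment with TGF-β each moved these genes. In KO1 4 of the 8 tested members were called, STAT2 and IRF9 higher and TLR3 and STING1 lower, where 25.0% of all 14585 genes tested were called. In KO2 1 of 8 was called, IRF1 lower, beside 16.3% of all genes (7.29% lower). With TGF-β 0 of 8 were called by limma, and 1 (TLR3) had an unadjusted p under 0.05, beside 7.84% of all genes, of which 3.58% were higher and 4.26% lower. With the same total for every library the median log2 change of all genes was −0.392 in KO1, −0.204 in KO2 and −0.199 with TGF-β, against 0 to 0.003 as scaled by the authors. On that scale the log2 change of STAT2 in KO1 was 1.18 (adjusted p = 1.7e-04), or 1.57 relative to the shift, and that of TLR3 was −2.01 (adjusted p = 4.2e-06), or −1.62 relative to the shift.

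The knockout clones were then set directly against TGF-β-treated cells and against each other. Between KO1 and TGF-β 3 of 8 members were called, STAT2 higher (log2 change 1.64, SE 0.20, adjusted p = 1.2e-05), IRF9 higher (1.04, SE 0.25, adjusted p = 0.00362) and STING1 lower, beside 22.7% of all genes. IRF9 fell below the fold threshold there without TGF-β replicate 1 (0.93) or KO1 replicate 2 (0.76). Between KO2 and TGF-β 1 of 8 was called, IRF1 lower (−1.20, SE 0.15, adjusted p = 2.7e-05), beside 16.9% of all genes, and STAT2 differed by 0.89 (SE 0.20, adjusted p = 0.00333). Between KO1 and KO2 TLR3 and STING1 were called lower in KO1, 2 of 8 beside 6.97% of all genes, and the STING1 call was lost when any 1 of the 4 libraries was left out (adjusted p 0.0666 to 0.115). STAT2 was higher in KO1 than in KO2 by 0.75 (SE 0.20, adjusted p = 0.0202), under the fold threshold, whereas IRF9 (0.57, SE 0.25, adjusted p = 0.139) and IRF1 (0.37, SE 0.15, adjusted p = 0.118) did not pass the test. These comparisons share their WT, TGF-β or KO libraries with those above.

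Where SETD2 had been put back into KO2, the same 3 members were called against KO2 in both clones, IRF1 higher and IRF9 and STAT2 lower. In Rescue1 IRF1 rose 2.26-fold over KO2 (log2 change 1.18, SE 0.15, adjusted p = 3.7e-05), IRF9 fell (−1.18, SE 0.25, adjusted p = 0.0019) and STAT2 fell (−1.34, SE 0.20, adjusted p = 1.3e-04). In Rescue2 IRF1 rose 2.67-fold (1.42, SE 0.15, adjusted p = 6.3e-06), IRF9 fell (−1.25, SE 0.25, adjusted p = 0.00125) and STAT2 fell (−1.07, SE 0.20, adjusted p = 8.9e-04). Both comparisons share the KO2 libraries. The 3 of 8 members called in Rescue1 stand beside 16.1% of all genes (6.88% higher and 9.24% lower), and the 3 of 8 in Rescue2 beside 15.3% (6.86% higher and 8.41% lower). Without KO2 replicate 1 the change of IRF9 in Rescue1 was −0.97 and that of STAT2 in Rescue2 was −0.89, and without Rescue1 replicate 2 that of IRF9 was −0.75, all 3 under the fold threshold. With the same total for every library, which moved the median of all genes to 0.233 in Rescue1 and 0.277 in Rescue2, IRF9 changed by −0.90 and −0.93 and STAT2 by −1.06 and −0.74. Relative to those medians the changes were −1.13 and −1.21 for IRF9 and −1.29 and −1.02 for STAT2. Between the rescue clones 0 of 8 members were called by limma, beside 0.994% of all genes, and 1 (TLR3, −0.87, SE 0.22, adjusted p = 0.0834) had an unadjusted p under 0.05.

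Because the rescue clones were grown in 10% serum and KO2 in 2%, each rescue clone was also set against eGFP-transduced WT cells in the same serum, and the difference of KO2 from WT was then subtracted. IRF1 was higher than in eGFP cells by 0.69 in Rescue1 (SE 0.15, adjusted p = 0.00397) and by 0.93 in Rescue2 (SE 0.15, adjusted p = 4.4e-04), and STAT2 differed by −0.04 (adjusted p = 0.921) and 0.23 (adjusted p = 0.47). In Rescue1 0 of 8 members were called against eGFP cells, beside 12.8% of all genes, and 1 (IRF1) had an unadjusted p under 0.05. In Rescue2 1 of 8 was called, beside 11.1%, which was RIGI against the eGFP libraries listed at 0, a call lost when any 1 of the 4 libraries was left out (adjusted p 0.0925 to 0.114). The difference of these differences was 1.83 for IRF1 in Rescue1 (SE 0.22, adjusted p = 1.6e-05) and 2.06 in Rescue2 (SE 0.22, adjusted p = 4.7e-06). For STAT2 it was −0.89 (SE 0.28, adjusted p = 0.0288) and −0.62 (SE 0.28, adjusted p = 0.125), and for IRF9 −0.57 (SE 0.35, adjusted p = 0.253) and −0.64 (SE 0.35, adjusted p = 0.201). Taken in this way the value for IRF1 was larger than against KO2 directly, and those for STAT2 and IRF9 were smaller. This does not set serum alone apart, since eGFP cells differed from WT in serum, lentivirus and selection together. It also takes these to act alike in WT and knockout cells, which was not tested. Rescue clones and eGFP cells were not matched in selection either. The rescue clones were single colonies selected with blasticidin, and the eGFP cells were selected in bulk with puromycin. In the libraries labelled KO2 rescue 0 of 8 members were called against KO2 by limma, beside 4.17% of all genes, and 1 (IRF9, −0.53, SE 0.25, adjusted p = 0.224) had an unadjusted p under 0.05.

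**Figure D3:**
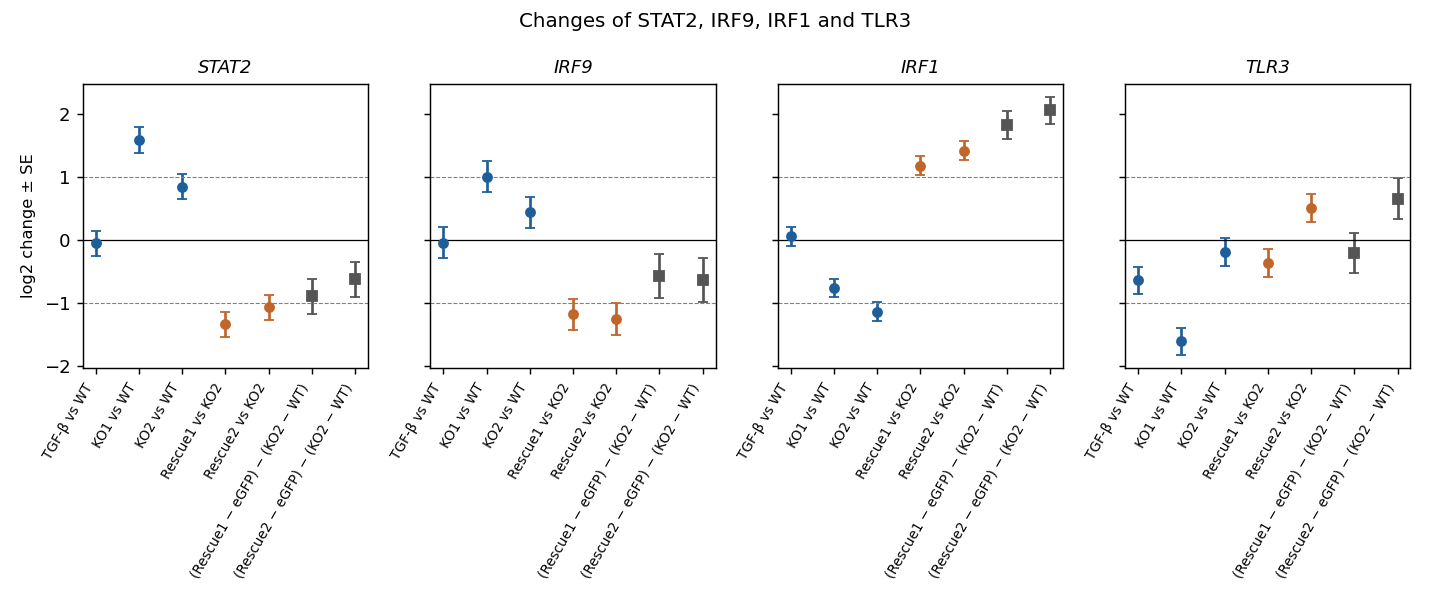
Log2 change with its SE from the fit of all 22 libraries for STAT2, IRF9, IRF1 and TLR3, as circles for TGF-β, KO1 and KO2 against WT and for the rescue clones against KO2, and as squares for rescue against eGFP less KO2 against WT; dashed lines mark a log2 change of 1 in either direction. IRF1 lies above the upper line in all 4 rescue points (1.18 to 2.06), whereas STAT2 and IRF9 lie below the lower line for rescue against KO2 only.

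The transduced lines asked whether SOX2, OCT2 or PRRX1, given to WT cells, moved these genes. Against eGFP cells 0 of 8 members were called by limma with SOX2, OCT2 or PRRX1, beside 0.0206%, 0.0343% and 0.0411% of all genes. With SOX2 RIGI and STAT2 had an unadjusted p under 0.05, with OCT2 RIGI, and with PRRX1 RIGI, IFIH1 and STAT2. STAT2 differed from eGFP by 0.51 with SOX2 (SE 0.20, adjusted p = 0.636) and by 0.51 with PRRX1 (SE 0.20, adjusted p = 1). Between eGFP cells and WT, which differed in serum and lentivirus together, 2 of 8 members were called lower in eGFP cells, beside 12.7% of all genes (6.49% higher and 6.24% lower). These were RIGI, listed at 0 in both eGFP libraries, a call lost when any 1 of the 4 libraries was left out (adjusted p 0.0712 to 0.0838), and IFIH1 (log2 change −3.12, SE 1.05, adjusted p = 0.0401), a call lost without WT replicate 1 (adjusted p = 0.138), WT replicate 2 (0.105) or eGFP replicate 2 (0.271). IRF1 was lower by −0.65 (SE 0.15, adjusted p = 0.00573), under the fold threshold. The other transduced WT cells shared the serum and the use of lentivirus with eGFP cells, and RIGI was not listed at 0 in them. It had 141.9 and 147 normalized counts with SOX2, 109.2 and 233.7 with OCT2, and 239 and 48.98 with PRRX1. IFIH1 had means of 16.6, 38.4 and 56.7 in these lines, against 90.6 in WT. Why RIGI was listed at 0 in the eGFP libraries was not tested.

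The genes around the 9 were read from lists of their pathway. Of 15 tested sensing partners and adaptors 5 were called higher and 1 lower in KO1, where 12.0% of all genes were called higher and 13.1% lower, and 3 were called higher in KO2, where 9.02% were. The 1 that was lower in KO1 was MAVS, the adaptor of RIG-I and MDA5, with 30.6 and 0 normalized counts against 209 and 316 in WT (log2 change −5.52, SE 1.20, adjusted p = 0.0018). Without KO1 replicate 2, where MAVS was listed at 0, its change was −3.03 (adjusted p = 0.0246). The median change of the 15 was 0.29 in KO1 and 0.44 in KO2, against 0 for all genes, and the 5 in KO1 became 2 with the same total for every library. TLR9, the endosomal DNA sensor, was listed at 0 in both WT libraries and in both libraries of each rescue clone, and had 12.5 and 6.02 in KO1 and 18.2 and 23.4 in KO2. With TGF-β 1 was called, IFI16, a DNA-binding partner of STING, which was lower (−1.08, SE 0.11, adjusted p = 7.0e-06), beside 4.26% of all genes. In the rescue clones against KO2, 9.24% of all genes were called lower in Rescue1, and 6.86% higher and 8.41% lower in Rescue2. Against KO2, 1 was called lower in Rescue1, TLR9, and in Rescue2 TLR9 was lower and EIF2AK2, the RNA-dependent kinase PKR, was higher (1.06, SE 0.34, adjusted p = 0.0288), a call lost when any 1 of the 4 libraries was left out (adjusted p 0.0558 to 0.161).

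Of 8 nucleases and editors that keep self nucleic acid from the sensors, 2 were called lower in KO1, 1 higher and 1 lower in KO2, and 1 lower with TGF-β. Of all genes 13.1% were lower in KO1, 9.02% higher and 7.29% lower in KO2, and 4.26% lower with TGF-β. RNASEH2A, the catalytic subunit of RNase H2, was lower in all 3 comparisons and had 523 and 789 normalized counts in WT, 62.9 and 48.6 in KO1, 132 and 132 in KO2, and 197 and 163 with TGF-β. Its log2 change was −3.51 in KO1 (SE 0.25, adjusted p = 2.9e-08), −2.27 in KO2 and −1.84 with TGF-β. In a fit of TGF-β and WT alone, where 0 of all genes were called, RNASEH2A had an adjusted p of 0.0936. It was the 1 of the 8 called in either rescue clone against KO2, and was higher by 1.85 in Rescue1 and 2.00 in Rescue2, beside 6.88% and 6.86% of all genes. ENPP1, which degrades the cGAS product, was higher in KO2 (1.85, SE 0.20, adjusted p = 5.5e-06). Of the 18 interferon ligand genes in the table, only IFNE passed the minimum, at 2.40 to 115 across libraries, and 16 were listed at 0 in all 22 libraries.

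Beside 25.0% of all genes in KO1 and 16.3% in KO2, 1 of 9 tested interferon receptors and JAK-STAT partners was called in each knockout against WT. These were IFNGR1, the ligand-binding chain of the interferon-γ receptor, higher in KO1 (1.12, SE 0.10, adjusted p = 6.8e-07, but 0.96 without WT replicate 2 and 0.71 with the same total for every library), and IFNGR2, its signalling chain, lower in KO2 (−1.25, SE 0.29, adjusted p = 0.00367, but −0.84 and 0.0602 without WT replicate 1). IFNGR1 was lower in Rescue2 than in KO2 (−1.14, SE 0.10, adjusted p = 1.2e-06), beside 8.41% of all genes, and was at −0.81 with the same total for every library. Of 4 tested IRF genes outside the 9, IRF5 was called lower in KO1 (−3.01, SE 0.35, adjusted p = 6.9e-06) and KO2 (−1.93, SE 0.35, adjusted p = 6.8e-04), beside 13.1% and 7.29% of all genes. Of 8 feedback inhibitors 4 were higher and 1 lower in KO1, and 2 higher and 1 lower in KO2, beside 12.0% and 13.1% of all genes in KO1 and 9.02% and 7.29% in KO2. SOCS1, which blocks JAK kinases, had 31.8 and 26.6 normalized counts in WT, 423 and 399 in KO1, and 248 and 218 in KO2. It rose by 3.78 on the log2 scale in KO1 (SE 0.19, adjusted p = 9.1e-10) and by 2.96 in KO2. PTPN6, a tyrosine phosphatase of cytokine receptors, fell in both (−2.27 and −1.57, SE 0.21). Against KO2, PTPN6 and TNFAIP3, a brake on NF-κB, were lower in Rescue1 (both −1.01), and in Rescue2 SOCS3 was higher (1.40) and TNFAIP3 lower (−1.14). Of all genes 9.24% were called lower in Rescue1, and 6.86% higher and 8.41% lower in Rescue2. Without Rescue1 replicate 2 PTPN6 was at −0.90 and TNFAIP3 at −0.92, and without KO2 replicate 1 TNFAIP3 was at −0.85 in Rescue1 and −0.97 in Rescue2. Without Rescue2 replicate 2 TNFAIP3 was at −0.83 there, and all 5 values were under the fold threshold. With the difference of eGFP cells from WT taken off, SOCS3 in Rescue2 turned to −1.83 and PTPN6 in Rescue1 to 0.28. With TGF-β TNFAIP3 was higher than in WT (1.01, SE 0.21, adjusted p = 0.00361), a call lost without WT replicate 2 (0.67, adjusted p = 0.0605), without TGF-β replicate 2 (0.94) and with the same total for every library (0.77).

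The targets of ISGF3 moved in both directions. Of 30 tested interferon-stimulated genes 12 were called higher and 2 lower in KO1, with a median log2 change of 0.74 against 0 for all genes, of which 12.0% were called higher and 13.1% lower. In KO2 5 were higher and 3 lower (median 0.63), beside 9.02% and 7.29% of all genes. With TGF-β 0 were higher and 6 lower (median −0.55), beside 3.58% and 4.26%. IFI27, a mitochondrial protein gene strongly induced by interferon-α, had 15.8 and 8.30 normalized counts in WT, 3260 and 2065 in KO1, and 535 and 321 in KO2. It rose by 7.70 in KO1 (SE 0.60, adjusted p = 8.9e-08) and by 5.06 in KO2 (SE 0.60, adjusted p = 1.3e-05) on the log2 scale. IFIT2, an inhibitor of viral translation, was lower in KO1 (−3.69, SE 0.32, adjusted p = 3.0e-07), XAF1 in KO2 (−3.60, SE 1.02, adjusted p = 0.015) and EPSTI1 with TGF-β (−2.77, SE 0.24, adjusted p = 1.7e-06). Fitted on TGF-β and WT alone, where 0 of all genes were called, EPSTI1 had an adjusted p of 0.0684. XAF1 had 5.17 and 0 in KO2, and its call was lost without KO2 replicate 2 (−2.29, adjusted p = 0.184) or without WT replicate 1 (0.0672) or replicate 2 (0.0535). Fitted on KO1 and WT alone, 7 were higher in KO1, where 1912 of all genes were called in either direction. Against KO2 6 were lower in Rescue1 and 7 in Rescue2, beside 9.24% and 8.41% of all genes, and 0 were called higher by limma in either, with IFI27 at 8.35 and 6.64 in Rescue1 and 19.3 and 38.0 in Rescue2. Between eGFP cells and WT, which differed in serum and lentivirus but carried no SETD2 construct, 1 was higher and 7 were lower (median −0.72), beside 6.49% and 6.24%. Against eGFP cells in the same serum, 5 were higher and 5 lower in Rescue1 (median 0.33), and 5 higher and 4 lower in Rescue2 (median 0.44). Of all genes 12.8% and 11.1% were called there, in either direction. With the difference of KO2 from WT set against that of Rescue1 from eGFP cells, 5 were higher and 3 lower in Rescue1. That count is given for this clone only and without the share of all genes, so whether it differs from that share cannot be told. IFNB1, IFNG, IFNL1, IFNAR1, IFIT5, PSMB9 and CXCL10 were not analysed here.

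Markers of the tubule and of other cell types also differed between these groups. Of 6 tested proximal tubule markers 4 were called higher in KO1 and 3 in KO2, beside 12.0% and 9.02% of all genes. Compared with KO2, 2 were called lower in Rescue1 and 1 in Rescue2, beside 9.24% and 8.41% of all genes. CUBN, an endocytic receptor of the tubule, had 34.6 and 13.9 normalized counts in WT, 333 and 153.5 in KO1, and 214 and 123 in KO2. ANPEP, a brush border peptidase, had 252 and 93.8 in KO2 and 25.6 and 28.8 in Rescue1, and GGT1, a brush border transferase, had 1091 and 945 in KO2 and 350.0 and 444 in Rescue2. Of 4 tested endothelial markers KDR, a VEGF receptor, was higher in both knockout clones, with 0.77 and 0 in WT, 123 and 103 in KO1 and 145 and 126 in KO2, and lower in both rescue clones than in KO2, with 4.19 and 42.0 in Rescue1 and 1.62 and 3.91 in Rescue2. CDH5, the endothelial cadherin, was listed at 0 in KO2 and had 68.7 and 83.8 in Rescue1. Of 3 tested blood cell markers CD14, a monocyte receptor, was called higher in KO1 and with TGF-β, at 2.47 to 11.4 against libraries of WT listed at 0, and CD68, a macrophage protein, had 189.9 and 145 in KO2, 2.20 and 36.8 in Rescue1, and 0 and 0.86 in Rescue2. Of all genes 3.58% were called higher with TGF-β, and 6.88% higher in Rescue1 than in KO2. The part of these markers in the counts above was not tested.

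**Figure D4:**
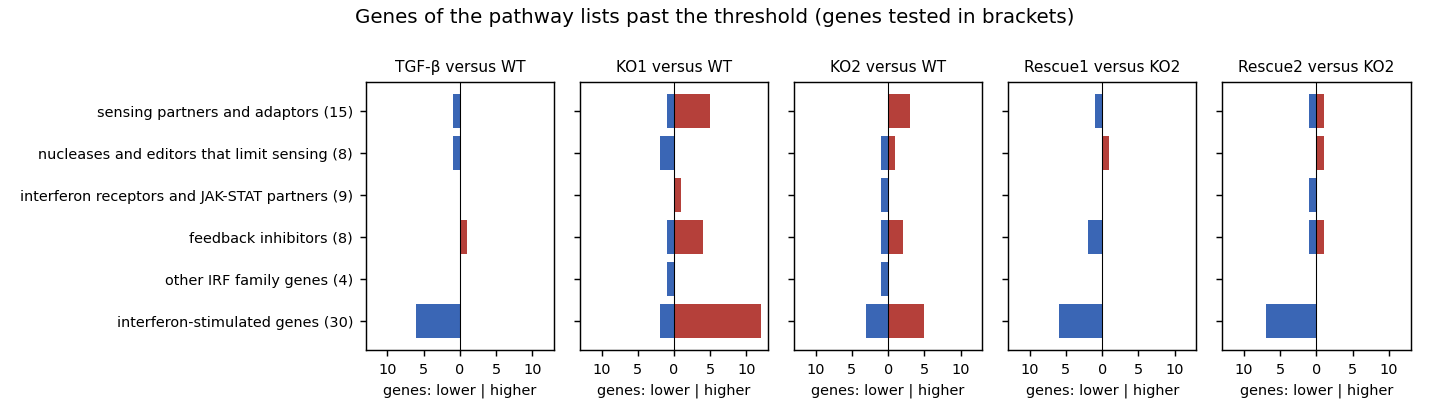
Number of genes past the threshold in 6 pathway lists, to the left of 0 for lower and to the right for higher, in 5 comparisons, with the number of genes tested in brackets. In KO1 12 interferon-stimulated genes are higher and 2 lower, and in the rescue clones against KO2, which also differed in serum, 6 and 7 are lower and 0 higher.

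Among all other tested genes, those whose log2 levels over the 22 libraries were most like STAT2 were TRIM8 (Pearson r = 0.95) and VEGFB (0.94), and 15 genes had r over 0.9 with it. For IRF1 these were NOP16 and G3BP1 (both 0.93), for TLR3 KLHDC7A and TMEM220 (both 0.86), for IRF7 GALT (0.84) and RNF215 (0.83), and for IRF9 ENSG00000280071 and ENSG00000276561 (both 0.92). For RIGI, IFIH1 and STING1 the highest r was 0.77 (TMPPE), 0.71 (LRRK2) and 0.73 (ARPC1A), followed by SPNS1 (0.75), TARS2 (0.71) and ANOS2P (0.72). The libraries of a group share their clone, medium and treatment, and the correlations are descriptions only.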

How the data were processed

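RNA-seq libraries of hTERT-immortalized RPTEC, 22 in all, were sorted into 11 groups of 2 by their labels. Per the labels, the authors quantified reads with Salmon 1.9.0 and used DESeq2 1.26.0, on the Ensembl release 94 transcriptome per the study's methods. The authors deposited log2 values for 36859 genes, which have the form of variance-stabilized normalized counts, with 11.32 as the lowest value in every library. How they were transformed is not given in the sources used here. They were inverted to normalized counts by setting that value to a count of 0. Whole reads could not be recovered, so no count test was run. Depth was about 7700000 to 19000000 reads, and duplicates differed by a median of 0.064 to 0.174 (log2) for genes of at least 1000 normalized counts.

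The test was limma 3.58.1 (R 4.3.3, trend of the variance) applied to log2(normalized count + 1). A mean per group was fitted to the 22 libraries together. The 14585 genes that reached 10 normalized counts in 2 or more libraries were tested, with Benjamini-Hochberg adjustment over these genes within each comparison. Fold changes are on that scale, which understates changes of low genes but can overstate them where 1 duplicate is listed at 0. RIGI in KO1 against WT was fitted at −3.57, with mean normalized counts of 82.6 and 151.7. On simulated data of 14585 genes, 51% of 200 genes given a log2 change of 2 were called, with 1 false call. Symbols and positions came from GENCODE release 44 (33878 of 36859 matched), and start regions from RefSeq. Levels per kilobase used the canonical transcript. Python 3.11.15, numpy, pandas and matplotlib were used for the rest. The members and lists were chosen with earlier results of these data known. Named were all 9 members, SETD2, the called gene with the largest rise and the largest fall of each list, and the 2 genes most like each member. PAX8, LRP2, CD3E, MS4A1, HBB, PECAM1 and IFNE were named after their values were seen. Some genes are not reported here and were left out of the lists. No column was left unmapped. Alternatives were other pseudocounts, filters and scalings, the deposited log2 values, fewer libraries, a replicate block and a difference within serum, the last chosen after seeing the data.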

Additional observations from a re-analysis of the deposited data

Results flagged for a closer look

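The knockout clones differed from each other in 3 of the genes followed, by the test of the difference itself. TLR3 was lower in KO1 than in KO2 by a log2 difference of −1.42 (limma adjusted p = 5.4e-04), with 105 and 78.4 normalized counts against 228 and 261. STING1 was lower by −4.91 (adjusted p = 0.0272) on the fitted scale, but was listed at 0 in both KO1 libraries, so that this value depends on the count of 1 that was added and is no bound. The call of STING1 was lost when any 1 of the 4 libraries was left out (adjusted p 0.0666 to 0.115). STAT2 was higher by 0.75 (adjusted p = 0.0202), and with the same total for every library by 0.56 (adjusted p = 0.0597). Each knockout was 1 clone, so that the spread between clones of a kind was not measured.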

How the results depend on the processing

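Counts of members called depended on low and uneven genes and on the fold threshold. On the deposited log2 scale, where a shared floor compresses changes, 0 members were called in KO1, KO2 or eGFP against WT, KO1 against KO2, KO1 or KO2 against TGF-β, either rescue clone against KO2, or Rescue2 against eGFP. In fits of the compared groups alone the count was 2 for KO1 against WT, 0 for KO1 against KO2, 1 for KO1 against TGF-β and 1 for eGFP against WT. Of all genes, 1912, 1, 1964 and 715 were called in these fits, in that order. The 0 for KO1 against KO2 therefore says nothing particular about the members. Without a minimum change it was 2 for KO2 against WT, 5 for KO1 against TGF-β, 2 for KO2 against TGF-β, 1 for Rescue1 against eGFP and 2 for Rescue2 against eGFP. A pseudocount of 5 or a mean of at least 50 left 1 for KO1 against KO2. For eGFP against WT, no filter, a mean of at least 50, or leaving out the libraries labelled KO2 rescue left 1. With the same total for every library it was 1 for Rescue2 against KO2 and 2 for Rescue2 against eGFP, and STAT2 in Rescue1 against eGFP turned to 0.05. The difference within serum left 1 in each rescue clone against KO2, and turned PTPN6 in Rescue1 to 0.28 and SOCS3 in Rescue2 to −1.83. The cause of these shifts was not tested.

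Leaving out 1 library at a time gave 2 to 4 for KO1 against WT, 1 to 2 for KO1 against KO2, 2 to 6 for KO1 against TGF-β (6 without KO1 replicate 1), 1 to 2 for KO2 against TGF-β (2 without TGF-β replicate 1 or KO2 replicate 2), 0 to 1 for Rescue1 against Rescue2 and against eGFP (1 without Rescue1 replicate 1), 0 for Rescue2 against eGFP, and 0 to 1 for eGFP against WT. STAT2 ran from −0.33 to 0.24 in Rescue1 and from −0.06 to 0.52 in Rescue2 against eGFP, with its sign set by which eGFP library was kept. Left with 1 library, a group is assumed to vary like the others.

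Same-numbered libraries did not deviate together (55 group pairs, r from −0.08 to 0.05), so replicate numbers do not pair them. With a replicate block the counts were those given, 4 for KO1 and 1 for KO2 against WT and 3 for each rescue clone against KO2. A single read was worth about 0.82 to 1.57 normalized counts, so CGAS (at most 1.82) and IRF7 (at most 30.3) rested on few reads, whereas RIGI was listed at 0 in the deepest library, KO1 replicate 2.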
